A study of Mus musculus with 9 samples.

Results

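The genes described are those of the cytosolic ribosome: every gene symbol of the form Rpl or Rps followed by a number, with the usual subunit suffixes, plus the stalk genes Rplp0, Rplp1 and Rplp2 and the small-subunit gene Rpsa. In the deposited values 83 symbols matched, and 81 of them (49 of the large and 32 of the small subunit) reached 10 or more in 3 or more libraries, out of 15411 genes that passed the same filter and 21853 genes in all. The other 2 were Rpl10l and Rpl39l, copies of Rpl10 and Rpl39 known in mice for their use in the testis: Rpl10l was listed at 0 in all 9 libraries, and Rpl39l was listed at 0 in the HD-WNT5B libraries, at 2.39, 0.737 and 1.23 in the HD-Control libraries and at 2.82, 2.42 and 5.84 in the WT-Control libraries. The 9 libraries, of polyadenylated RNA from mouse brain, form 3 groups of 3. The HD-WNT5B group came from N171-82Q mice, which carry an N-terminal fragment of mutant huntingtin, given an adeno-associated virus that carries WNT5B, a secreted ligand of non-canonical Wnt signalling, joined to the red fluorescent protein mCherry through a P2A peptide. The HD-Control group came from the same mouse model given a virus with mCherry alone, and the WT-Control group from wild-type mice given that control virus. In all 3 groups the virus used the GFAP promoter, which is active chiefly in astrocytes, and the series text places the WNT5B injection in the striatum. The labels give the tissue as brain with no region, and give no age, no sex and no word on whether replicate libraries stem from different animals, so p-values measure only the spread between these libraries.

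A mammalian ribosome is built from ribosomal RNA and about one protein from each of these genes: the small subunit reads the messenger RNA, and the large subunit joins the amino acids and releases the chain through its exit tunnel. The messages of most of these proteins begin with a run of pyrimidines, the 5′ terminal oligopyrimidine (TOP) tract, through which mTORC1 and the RNA-binding protein LARP1 control their translation and stability together. In the brain ribosomes are found in cell bodies, dendrites and glial processes, and unassembled ribosomal proteins are normally degraded.

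Windows around the annotated starts of members that stand out below were searched for a run of pyrimidines. Each line is the coding strand from 30 bases before to 20 bases after the RefSeq start (RefSeq, GRCm38.p6), and capitals mark a run of at least 7 pyrimidines that begins with C within 30 bases of the start.
Rps27: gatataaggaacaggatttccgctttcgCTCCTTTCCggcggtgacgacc
Rpl13a: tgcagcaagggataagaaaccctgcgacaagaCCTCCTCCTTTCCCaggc
Rplp2: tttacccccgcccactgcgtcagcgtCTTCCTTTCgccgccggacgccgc
Rpl38: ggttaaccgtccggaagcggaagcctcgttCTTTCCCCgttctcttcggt
Rps6: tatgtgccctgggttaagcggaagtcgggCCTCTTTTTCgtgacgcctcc
Rpl15: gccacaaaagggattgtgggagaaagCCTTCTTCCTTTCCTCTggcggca
Rpsa: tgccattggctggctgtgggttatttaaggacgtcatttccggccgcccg
Rpl10: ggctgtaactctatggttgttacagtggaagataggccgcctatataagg
Rpl36a: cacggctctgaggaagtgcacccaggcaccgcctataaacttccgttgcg
Rps27 (chr3:90213629-90213678, minus strand) had the largest difference between HD-Control and WT-Control libraries, and Rpl13a (chr7:45128726-45128775, minus), Rplp2 (chr7:141447621-141447670, plus) and Rpl38 (chr11:114668550-114668599, plus) were among the members furthest above HD-Control in the HD-WNT5B libraries before any allowance for length. Rps6 (chr4:86857348-86857397, minus) was the one member called lower there, and Rpl15 (chr14:18270967-18271016, minus) was among those that differed least in both comparisons. All 6 have a run by this definition, called a tract from here on, which need not lie at the first base of the message. No tract by this definition is in the windows of Rpsa (chr9:120127736-120127785, plus), Rpl10 (chrX:74270786-74270835, plus) or Rpl36a (chrX:134585624-134585673, plus). That does not show that their messages lack a TOP tract. The Rpsa window begins inside the gene as annotated by GENCODE (chr9:120127689-120132369), so a start further upstream was not searched. Such a run is also near the start of 29.7% of all genes with an entry. Of the 81 members 61 had an entry in the RefSeq promoter table.

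No source used here states the scale of the deposited values. They are taken as estimated reads per gene divided by 1 factor per library and not by transcript length, because 96.4 to 98.7% of low values (above 0.05 and under 20 steps) lay within 0.05 of a whole multiple of 1 step fitted per library. Each library also holds values just above 0, far below that step, and a search that starts from the smallest value finds no common step, so this scale is an inference. The depth it implies, in mega-reads (M), was 45.7, 52.1 and 37.3 M in the HD-WNT5B libraries, 69.8, 75.4 and 90.6 M in the HD-Control libraries and 77.8, 67.8 and 74.8 M in the WT-Control libraries. The HD-WNT5B libraries stood apart from both control groups: 14291 to 14588 genes were above 0 in them, against 17223 to 17349 in HD-Control and 17027 to 17132 in WT-Control libraries, and their values summed to 79.9 to 83.8 M, against 55.6 to 55.8 M in HD-Control and 54.6 to 54.7 M in WT-Control libraries. Replicates also scattered more in that group, with a median SD of 0.10 on the log2 scale over the 81 members, against 0.025 in HD-Control and 0.025 in WT-Control libraries. Mouse Wnt5b was at 184, 22.5 and 212 in the HD-WNT5B libraries, at 63.8, 44.2 and 49.3 in the HD-Control libraries and at 74.6, 63.8 and 57.7 in the WT-Control libraries, and did not pass the test between HD-WNT5B and HD-Control (log2 0.88, SE 0.73, limma adjusted p = 0.298). Its second HD-WNT5B value lies below all 6 control values, so these values do not check the labels, and reads of the virus itself were not analysed here. Markers of oligodendrocytes and of striatal projection neurons were abundant in every library, with summed values of at least 338484 and 289555.

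Ribosomal protein genes took up 8.12, 8.50 and 8.73% of the summed values in the HD-WNT5B libraries, 1.42, 1.39 and 1.39% in the HD-Control libraries and 1.08, 1.07 and 1.07% in the WT-Control libraries. The 3 groups did not overlap. The large subunit made up 4.90 to 5.25% of the values in HD-WNT5B, 0.851 to 0.867% in HD-Control and 0.649 to 0.657% in WT-Control libraries. The small subunit made up 3.22 to 3.48% in HD-WNT5B, 0.535 to 0.549% in HD-Control and 0.416 to 0.423% in WT-Control libraries. Large over small was 1.51 to 1.52 in HD-WNT5B, 1.58 to 1.59 in HD-Control and 1.55 to 1.56 in WT-Control libraries, so the balance of the subunits moved far less than their sum. Per kilobase of transcript, the median large-subunit gene stood at 49682 to 58368 in HD-WNT5B, 10559 to 10949 in HD-Control and 7593 to 7902 in WT-Control libraries, and the median small-subunit gene at 61617 to 68851 in HD-WNT5B, 11416 to 11535 in HD-Control and 8536 to 8799.9 in WT-Control libraries. In bulk tissue, fewer cells of a type and less RNA per cell cannot be told apart.

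**Figure D1:**
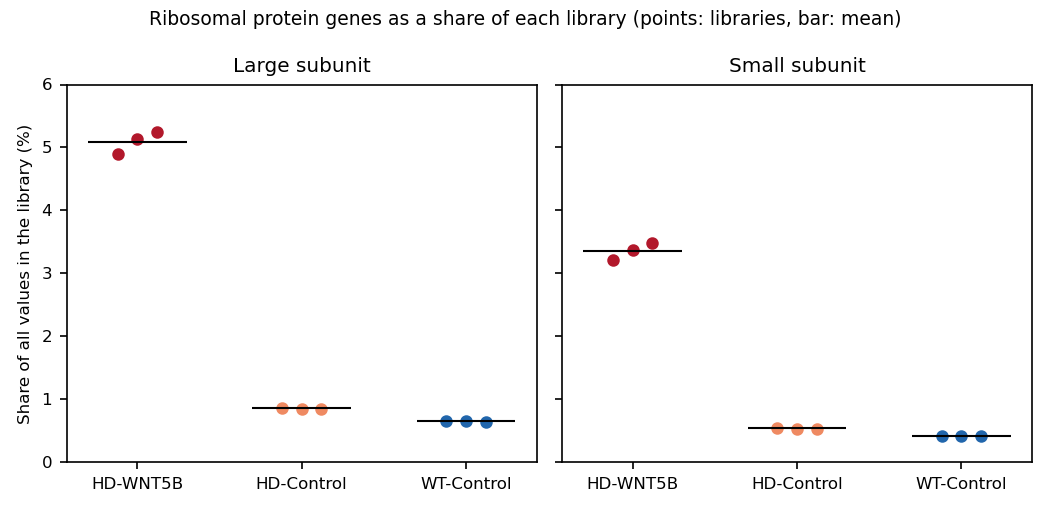
Summed values of the large-subunit (left, 49 genes) and small-subunit (right, 32 genes) genes as a percentage of all values in each library, with 1 point per library and a bar at the group mean. The HD-WNT5B libraries lie at 4.90 to 5.25% and 3.22 to 3.48%, far above both control groups, and HD-Control lies above WT-Control in both panels without overlap.

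HD-Control against WT-Control asks what the disease model does under the same control virus. Of the 81 members 73 were higher in HD-Control, 0 were lower and 8 were not called (limma on log2 of the value plus 3, Benjamini-Hochberg adjusted p below 0.05 over all 15411 genes), where 24.5% of all genes were called higher and 20.7% lower. No difference lay below 0, so none was lower by any threshold (limma, 0 lower and 75 higher at an unadjusted p below 0.05). The differences were small and even: the median was 0.41 on the log2 scale (a 1.33-fold ratio) with an SD of 0.15 across members, beside a median of 0.02 over all genes. The large subunit had 44 higher and 5 not called with a median of 0.44, and the small subunit 29 higher and 3 not called with a median of 0.40. In 79 members every HD-Control value lay above every WT-Control value, which held for 43.6% of all genes, while 40.4% had every value below. The spread of the HD-WNT5B libraries enters this test through the shared variance: with a weight per group 80 members were called higher, where 43.1% of all genes were higher and 39.9% lower, and 79 when only the 2 groups were fitted, where 43.9% of all genes were higher and 40.5% lower. With a curve for transcript length and GC content in the fit 69 were higher and 0 lower with a median of 0.33 (all genes 25.1% higher and 20.6% lower), and 0 members were called at least 2-fold higher, against 4.46% of all genes (limma, without the curve).

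Rps27, a small-subunit protein that binds zinc (chr3:90212522-90213651, mm10), differed most. It was at 9541, 8983 and 9224 in the HD-Control libraries and at 5152, 4829 and 5047 in the WT-Control libraries. All HD-Control values were above all WT-Control values, by 0.88 on the log2 scale (SE 0.038, limma adjusted p = 1.1e-06). Rps13 was next, at 6529, 6381 and 6143 in HD-Control and 4013, 3863 and 3901 in WT-Control libraries, again without overlap (0.69, SE 0.044, limma adjusted p = 6.6e-06). Rps14, a protein of the platform of the small subunit, stood at 11763, 11439 and 11389 in HD-Control and at 7519.9, 7293 and 6907 in WT-Control libraries (0.67, SE 0.089, limma adjusted p = 0.00039). The groups did not overlap for it either.

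In the large subunit Rpl13a, known in human myeloid cells also for silencing inflammatory messages, was at 22183, 21822 and 21559.8 in HD-Control libraries and at 14401, 14032 and 13814 in WT-Control libraries. Its groups were well apart (0.63, SE 0.059, limma adjusted p = 5.5e-05). Rpl17, which lies near the exit tunnel, was at 14708, 14232 and 14370.2 in HD-Control and at 9349.7, 9533 and 9596 in WT-Control libraries (0.60, SE 0.029, limma adjusted p = 1.6e-06). Rpl7 followed with 16692, 16689 and 16809 in HD-Control and 11258, 11231 and 11205 in WT-Control libraries (0.57, SE 0.039, limma adjusted p = 1e-05). All 3 were free of overlap between the groups.

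The genes of the stalk proteins, which recruit the elongation factors to the large subunit, were higher by about the median or less. Rplp0 was at 11344, 11328 and 11283 in HD-Control and 8882, 9013 and 8548 in WT-Control libraries (0.36, limma adjusted p = 0.00016), Rplp1 differed by 0.26 (limma adjusted p = 0.00105) and Rplp2 by 0.41 (limma adjusted p = 0.00036). Rpl5 and Rpl11, which with 5S RNA form the particle that can bind Mdm2, were 0.40 and 0.54 higher (limma adjusted p = 0.00023 and 2e-05), and Rpl26, which in human cells also binds the p53 message, was 0.31 higher (limma adjusted p = 0.00041). Rps19, the gene most often mutated in Diamond-Blackfan anaemia, was 0.57 higher, and Rps3, which lines the entry of the message channel, 0.40 higher (limma adjusted p = 0.00018 and 0.00351). Rps6, the substrate of the S6 kinases below mTORC1, was at 6435, 6416 and 6241 in HD-Control and 4995, 4938 and 5011 in WT-Control libraries (0.35, SE 0.062, limma adjusted p = 0.00178). Rps27a, which is made as a fusion with ubiquitin, was 0.61 higher and the X-linked Rps4x 0.35 higher (limma adjusted p = 0.00026 and 6.4e-05).

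Among the 8 members that did not pass were Rpsa, Rpl15, Rpl27a, Rpl10, Rpl35, Rpl3l and Rps27l. Rpsa, which is also known as a laminin receptor precursor, was at 19899, 19028 and 19441 in HD-Control libraries and at 19671, 19408 and 19084 in WT-Control libraries. Those 6 values are interleaved, and the difference was 0.005 (SE 0.057, limma adjusted p = 0.959). Rpl15, a core protein of the large subunit, was at 6090.1, 5794 and 5813 in HD-Control and 5739, 5687 and 5682 in WT-Control libraries (0.05, limma adjusted p = 0.495), with all HD-Control values above but by little. Rpl10, which joins the large subunit late and reaches towards its catalytic centre, was at 10813, 10406 and 10581 in HD-Control and 9701, 9551 and 9832 in WT-Control libraries (0.13, limma adjusted p = 0.383). Rpl27a and Rpl35 differed by 0.10 and 0.26 (limma adjusted p = 0.203 and 0.0885), each with every HD-Control value above every WT-Control value. Rpl35 shares 66.2% of its exon bases with other genes (Arpc5l and Wdr38), and the kit is unstranded per the labels, so sense and antisense reads there cannot be separated. With a weight per group all but Rpsa of the 8 were called higher. Without the first HD-WNT5B library Rpl10 was called higher too (limma adjusted p = 0.00313), and without the third Rpl27a, Rpl35 and Rps27l (limma adjusted p = 0.00512, 0.000582 and 0.0108).

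**Figure D2:**
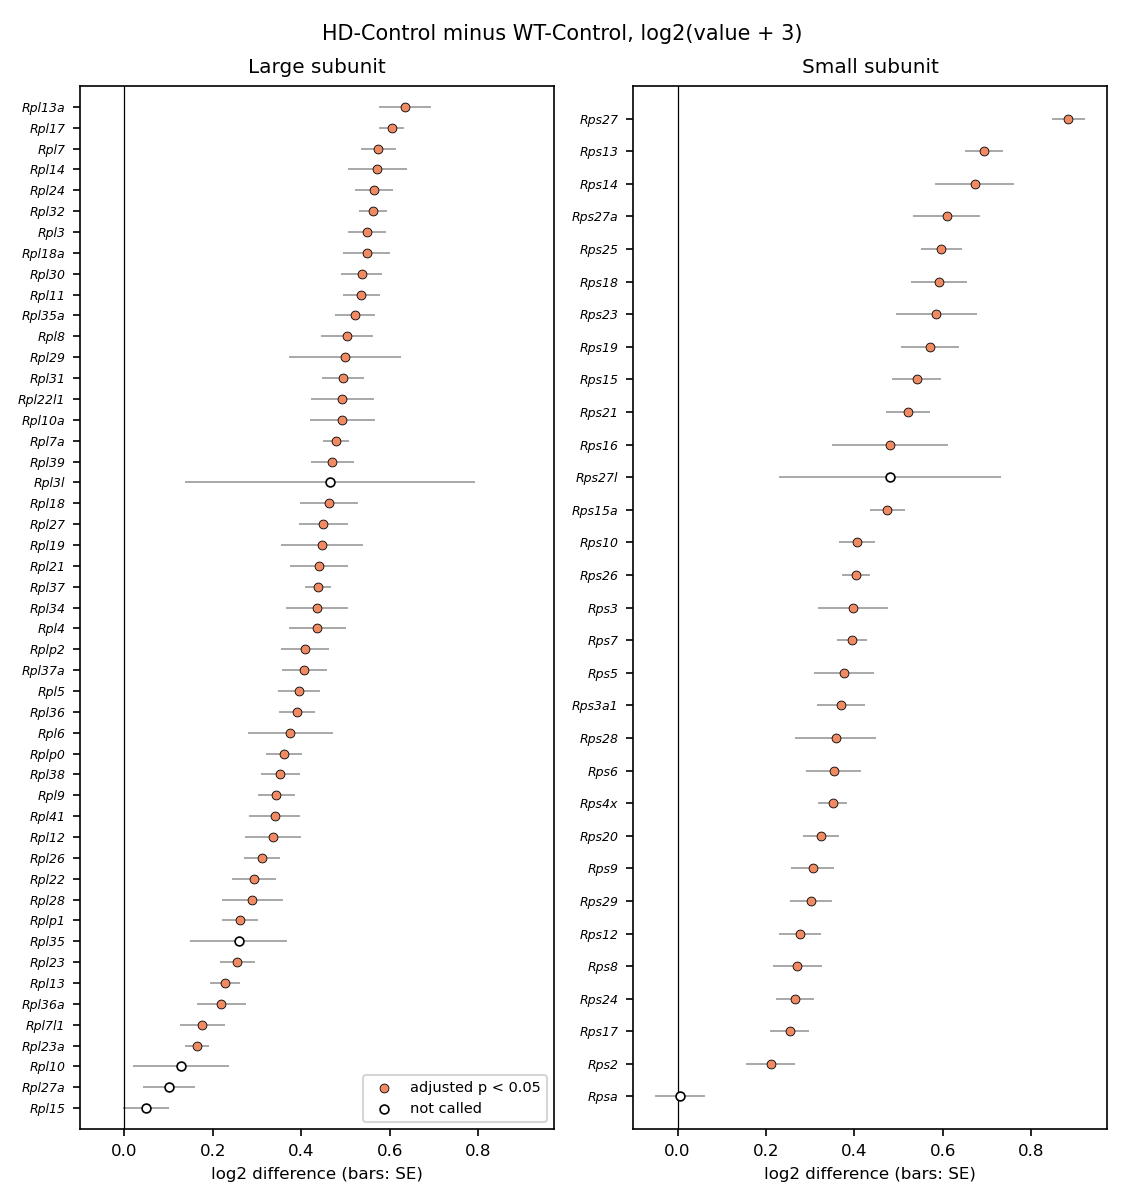
Differences between HD-Control and WT-Control for the large-subunit (left) and small-subunit (right) genes reported singly, in log2 of the value plus 3, with bars of 1 SE; filled points were called at adjusted p below 0.05 and open points were not. All points lie at or above 0, most between 0.2 and 0.6, with Rps27 highest at 0.88 and Rpsa lowest.

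HD-WNT5B against HD-Control sets the WNT5B virus against the control virus in the disease model. As given above, the HD-WNT5B libraries also differed in genes detected, implied depth, summed values and replicate scatter. An effect of the virus and a difference between libraries cannot be told apart in this comparison. Here 78 of the 81 members were higher in HD-WNT5B, 1 was lower and 2 were not called, where 35.8% of all genes were called higher and 41.7% lower. The median difference was 2.78 on the log2 scale, a 6.87-fold ratio, beside a median of -0.23 over all genes, and 72 members were at least 2-fold higher, as were 23.6% of all genes. In 77 members every HD-WNT5B value lay above every HD-Control value and in 2 (Rps6 and Rpl7a) below, against 36.2 and 42.5% of all genes. The large subunit had 47 higher, 0 lower and 2 not called (median 2.78), and the small subunit 31 higher and 1 lower (median 2.67). Unlike the even shift between HD-Control and WT-Control, the members ranged from -1.05 to 5.47, with an SD of 1.29 across them. Values of short transcripts were higher in general in the HD-WNT5B libraries, and with the curve for length and GC content in the fit the median was 1.29, with 68 members higher and 9 lower (all genes 40.8% higher and 31.8% lower). The 9 were Rpl7a, Rpl10, Rpl15, Rpl19, Rpl29, Rps6, Rps16, Rps18 and Rps27l.

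Rpl36 (chr17:56613416-56614243, mm10), a small protein of the large subunit, was at 181675, 189502 and 184498 in HD-WNT5B libraries, against 4193, 4158 and 4169.7 in HD-Control libraries and 3375, 3033 and 3153 in WT-Control libraries. The 3 groups were separate, and HD-WNT5B was 44.4-fold above HD-Control (log2 5.47, SE 0.041, limma adjusted p = 2e-11). Rpl36a, which lies at the exit site of the transfer RNA, was at 116819, 119497 and 103808 in HD-WNT5B, 3147, 3082 and 2961 in HD-Control and 2625, 2582 and 2683 in WT-Control libraries (5.21 over HD-Control, SE 0.055, limma adjusted p = 2.7e-11). Rpl38, which in mice is needed for the translation of a set of Hox messages, was at 169360.0, 173309 and 155523 in HD-WNT5B, 5402, 5249 and 5188 in HD-Control and 4109, 4033 and 4259 in WT-Control libraries (4.97, SE 0.045, limma adjusted p = 2e-11). None of the 3 shares exon bases with another annotated gene. With the curve they stood lower, at 2.496 (Rpl36), 3.50 (Rpl36a) and 2.36 (Rpl38) over HD-Control. The large-subunit member furthest above was then Rpl5 at 4.27. The curve uses 1 representative length and GC content per gene. For Rpl5 these were 2045 bases and 42.7%, against medians of 833 bases and 51.7% over members. The Rpl5 value with the curve rests on both, and their parts in it were not separated.

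In the small subunit Rpsa (chr9:120127689-120132369, mm10) differed most in the values without the curve. It was at 503205, 578723 and 493298 in HD-WNT5B libraries, 27.0-fold above HD-Control (log2 4.75, SE 0.057, limma adjusted p = 5.2e-11), although HD-Control and WT-Control overlapped for it as given above. Rps24 was at 231816, 239501 and 214719 in HD-WNT5B and 10525, 10239 and 10326 in HD-Control libraries (4.46, SE 0.043, limma adjusted p = 2.2e-11). Rps21 was at 178498, 164279 and 158501 in HD-WNT5B and 8597, 8749.7 and 8398 in HD-Control libraries (4.28, SE 0.050, limma adjusted p = 4.6e-11). For both genes the lowest HD-WNT5B value was more than 10 times the highest HD-Control value. Rps27 was at 169843, 175748 and 165477 in HD-WNT5B libraries, 4.20 above HD-Control (limma adjusted p = 2e-11). With the curve the order was another: Rps20 stood at 5.02, Rps24 at 4.51, Rpsa at 4.39, Rps21 at 1.86 and Rps27 at 1.74. The representative transcript of Rps20 has 3706 bases and a GC content of 41.3%, against medians of 833 bases and 51.7% over members. Without the curve Rps20 stood at 3.91, so its first place rests on the length and GC content it was given.

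The 3 stalk genes were higher. Rplp0, the base of the stalk, was at 41640.1, 43998 and 46124 in HD-WNT5B libraries (1.95 over HD-Control, limma adjusted p = 8.1e-10). Rplp1 was at 252878, 270984 and 270808 in HD-WNT5B and 18828, 19479 and 19344 in HD-Control libraries (3.78, limma adjusted p = 3.2e-11), and Rplp2 at 154364, 180306 and 173892 in HD-WNT5B and 6463, 6459 and 6319 in HD-Control libraries (4.72, limma adjusted p = 3.7e-11). The values of the genes for the acidic pair of the stalk's arms were 13.8-fold (Rplp1) and 26.4-fold (Rplp2) higher. The value of the gene for its base, Rplp0, was 3.88-fold higher. With the curve Rplp1 stood at 1.33, Rplp2 at 3.36 and Rplp0 at 1.25, so that Rplp1 and Rplp0 were then nearly level. Of the Mdm2-binding pair, Rpl5 rose by 3.69 and Rpl11 by 2.56, and Rpl26 rose by 3.06 (limma adjusted p = 7.1e-11, 2e-10 and 9e-11). Rpl13a was at 541069, 535976 and 460272 in HD-WNT5B libraries (4.55, limma adjusted p = 7.1e-11), but 35.4% of its exon bases are shared with Gm45713, Mir5121 and Snord33. Rps19 rose by 3.72, Rps4x by 3.38, Rps27a by 1.92 and Rps3 by 1.15 (limma adjusted p = 3.3e-10, 2.3e-11, 3.7e-08 and 1.4e-06).

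**Figure D3:**
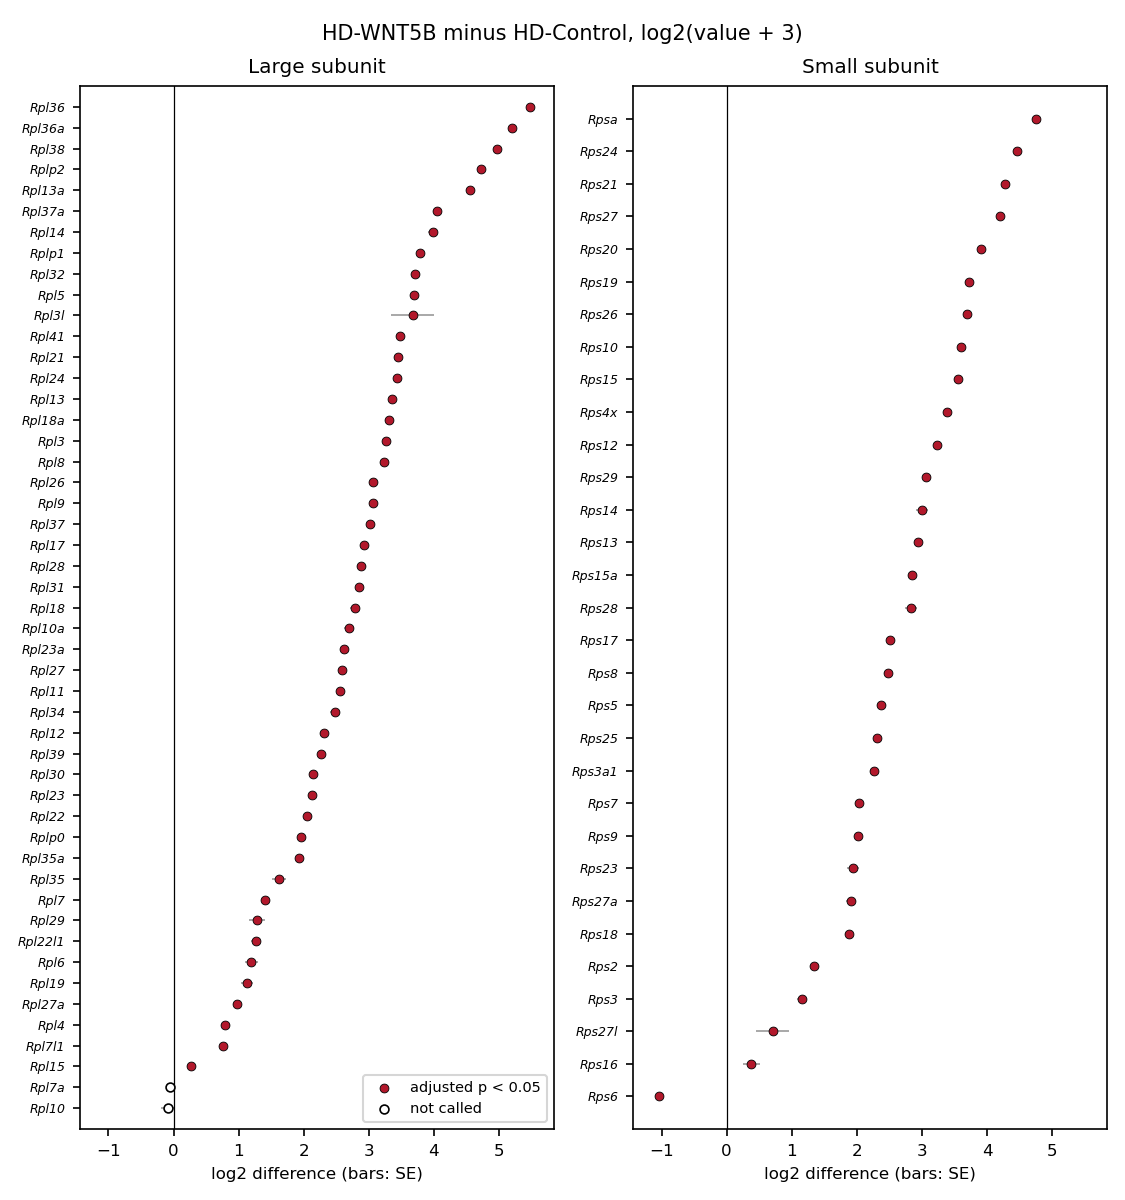
Differences between HD-WNT5B and HD-Control for the large-subunit (left) and small-subunit (right) genes reported singly, in log2 of the value plus 3, with bars of 1 SE; filled points were called at adjusted p below 0.05 and open points were not. The members spread from Rpl36 at 5.47 down to Rps6 at -1.05, and most lie between 1 and 4.

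Rps6 (chr4:86854660-86857412, mm10) was the one member called lower. It was at 3398, 2848 and 3011 in HD-WNT5B libraries, below all HD-Control and all WT-Control values (log2 -1.05 against HD-Control, SE 0.062, limma adjusted p = 5e-07). Rpl7a, a large-subunit protein, was at 12791, 13325 and 13347 in HD-WNT5B, 13840.1, 13756 and 13548 in HD-Control and 9771, 9896 and 9856 in WT-Control libraries, and the difference to HD-Control did not pass (-0.06, SE 0.029, limma adjusted p = 0.0824). Rpl10 (chrX:74270812-74273135, mm10) was at 8117, 10992 and 11207 in HD-WNT5B libraries, on both sides of the HD-Control values (-0.08, SE 0.11, limma adjusted p = 0.499). The Rpl10 difference was -0.64 with equal library totals and -1.23 with the curve, and was called lower in both (limma adjusted p = 0.000598 and 3.75e-06). Rpl15 was at 7641, 6680.4 and 6924 in HD-WNT5B libraries, above all HD-Control values but by little (0.26, SE 0.052, limma adjusted p = 0.00149), and this difference was -0.29 when every library was scaled to the same total and -0.12 with the length and GC curve. Rps16 was at 5822, 6425 and 8824 in HD-WNT5B and 5384, 5331 and 5218 in HD-Control libraries (0.38, SE 0.13, limma adjusted p = 0.0265), with the third HD-WNT5B library well above the other two; the Rps16 difference was -0.42 with the curve. Rpl27a and Rpl35, also not called between HD-Control and WT-Control, were 0.97 and 1.62 higher in HD-WNT5B (limma adjusted p = 6e-07 and 1.3e-06), and with the curve Rpl35 stood at 0.11 (limma adjusted p = 0.227).

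**Figure D4:**
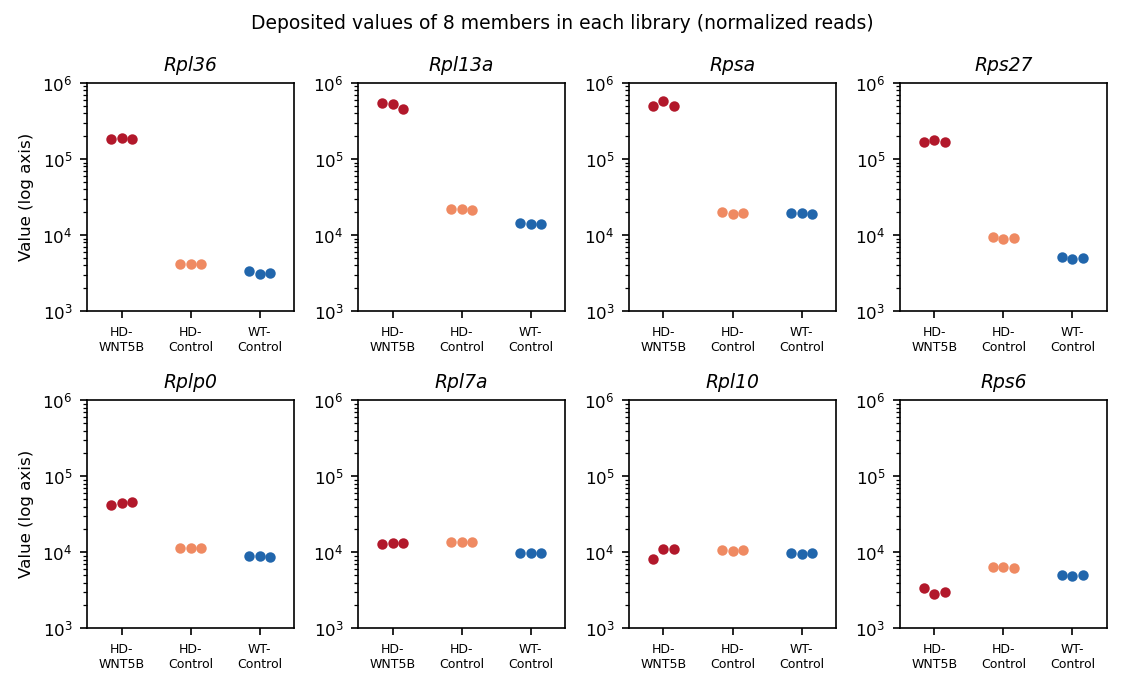
Deposited values of 8 members in each library on a log axis, 3 points per group: Rpl36, Rpl13a, Rpsa and Rps27, which are among those that differed most, the stalk base Rplp0, and Rpl7a, Rpl10 and Rps6, which were not called higher in HD-WNT5B than in HD-Control. Rpsa lies at about the same height in both control groups, Rps6 is lowest in HD-WNT5B, and Rpl10 and Rpl7a are about level in HD-WNT5B and HD-Control.

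HD-WNT5B against WT-Control gave 79 members higher, 1 lower (Rps6, log2 -0.69, SE 0.062, limma adjusted p = 8e-06) and 1 not called (Rpl10, 0.04, limma adjusted p = 0.72), where 35.9% of all genes were higher and 42.1% lower. This comparison shares its libraries with the other two, and in it too the virus and library differences cannot be told apart. Every HD-WNT5B value lay above every WT-Control value in 79 members and below in 1, against 36.2 and 43.2% of all genes, and 75 members were at least 2-fold higher, as were 23.9% of all genes. The median was 3.18 for the large and 3.05 for the small subunit, beside -0.25 over all genes, and with the length and GC curve 72 members were higher and 5 lower with a median of 1.66 (all genes 41.2% higher and 32.5% lower). Rpl36, Rpl36a and Rpl38 were again furthest apart in the large subunit (5.86, 5.43 and 5.33), and Rps27, Rps21 and Rpsa in the small subunit (5.09, 4.80 and 4.76; limma adjusted p of the 6 between 9.5e-12 and 4.5e-11). With the curve Rpl5 (4.602) and Rps20 (5.37) were furthest apart. Both values rest on the length (2045 and 3706 bases) and the GC content of their representative transcripts.

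Because levels of different genes can be compared only per length, the members were ranked by mean value per kilobase within each subunit. Rplp1 was first of the large subunit in all 3 groups, at 530842 in HD-WNT5B, 38511 in HD-Control and 32150 in WT-Control. In HD-WNT5B it was followed by Rpl13a, Rpl36 and Rpl38, of which Rpl36 was 24th in HD-Control and 23rd in WT-Control. Rpl4 was 31st of 49 in HD-WNT5B, 4th in HD-Control and 3rd in WT-Control. In the small subunit Rps27 was first in HD-WNT5B, 3rd in HD-Control and 4th in WT-Control, and Rpsa was 4th of 32 in HD-WNT5B, 18th in HD-Control and 10th in WT-Control. Across the 81 members the order of the values correlated at a Spearman rho of 0.52 between HD-WNT5B and HD-Control, 0.47 between HD-WNT5B and WT-Control and 0.97 between HD-Control and WT-Control, a description of genes that share each library. Rpl39, which lines the exit tunnel, was at 15350.3, 16914 and 16924 in HD-WNT5B, 3504, 3400.1 and 3276 in HD-Control and 2431, 2424 and 2491 in WT-Control libraries, all 3 groups apart. Rps15, at the decoding head of the small subunit, and Rpl3, next to the catalytic centre, had some of the highest mean values over the 9 libraries, at 195177 to 228128 and 279209 to 312465 in HD-WNT5B, 18259.7 to 18525 and 31306 to 31489 in HD-Control and 12454 to 12981 and 21301 to 21577 in WT-Control libraries. The 5 highest members, not divided by length, held 25.3 to 27.2% of all ribosomal protein values in HD-WNT5B libraries, 16.0 to 16.3% in HD-Control and 16.3 to 16.5% in WT-Control libraries.

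Transcript length moved with the HD-WNT5B difference across all genes (Spearman rho -0.37 over 15411 genes against HD-Control, and 0.31 for GC content), and barely between HD-Control and WT-Control (-0.05 and -0.004). The members are short, with a median transcript of 833 bases against 2926 over all genes tested. Among transcripts up to 750 bases, 33 members had a median of 2.998 and the other 366 genes 2.17 over HD-Control. All 33 were called higher, as were 35.8% of all genes, and the share among the 366 was not counted. From 750 to 1500 bases 38 members had 2.35 and the other 2014 genes 1.14, and from 1500 to 3000 bases 8 members had 2.42 and the other 5505 genes 0.05. So the members' median exceeded that of genes of like length in each of these classes, by less in the shortest. Between HD-Control and WT-Control the same classes gave 0.45, 0.41 and 0.34 for members and 0.03, 0.06 and 0.03 for other genes. The cause of the trend with length was not tested.

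**Figure D5:**
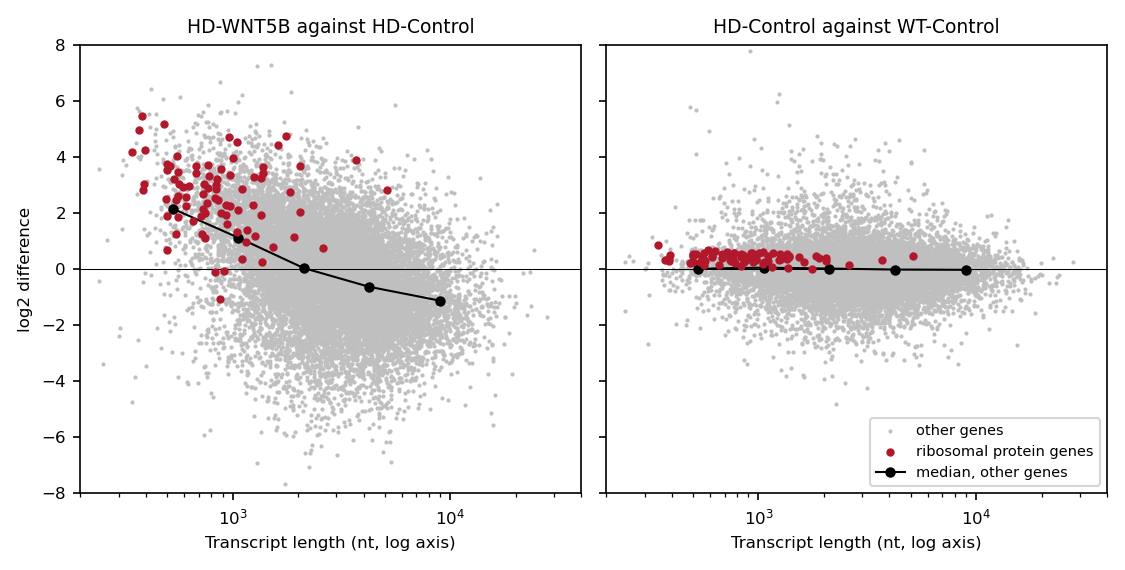
Log2 difference against representative transcript length (log axis, bases) for HD-WNT5B against HD-Control (left) and HD-Control against WT-Control (right); grey points are other genes, red points the 81 ribosomal protein genes, and black points the median of other genes in 5 length classes. On the left the black line falls from 2.17 in the shortest class to -1.12 in the longest and most red points lie above it, while on the right it stays near 0 and the red points form a narrow band above it.

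The counts were also taken apart by exon overlap and pseudogenes. Of 43 members that share no exon base with another gene, 41 were higher in HD-Control than in WT-Control, and 42 were higher and 1 lower in HD-WNT5B than in HD-Control. Of 38 members with such overlap the counts were 32 and 36 higher. For these counts and those below, 24.5% of all genes were higher and 20.7% lower in HD-Control against WT-Control. In HD-WNT5B against HD-Control the shares were 35.8% higher and 41.7% lower. Ribosomal protein genes have many processed pseudogenes that can take or lend reads, so single values are uncertain. Only pseudogenes whose symbol is the parent's name followed by -ps were counted. By that count 60 members had at least 1 (54 higher in HD-Control, and 57 higher and 1 lower in HD-WNT5B) and 21 had none (19 and 21 higher). Pseudogenes under other names were not counted, so the 21 are not shown to be free of them.

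Paralog pairs were compared within each library, as the paralog's log2 value minus that of its parent, with an exact two-sided permutation test of 3 against 3 libraries whose smallest p is 0.1. Rps27l, which in human cells is induced by p53, was at 714, 919 and 433 in HD-WNT5B, 436, 385 and 387 in HD-Control and 275, 296 and 291 in WT-Control libraries. Relative to Rps27 it fell by 3.50 in HD-WNT5B against HD-Control without overlap (SE 0.30, exact p = 0.1, adjusted p = 0.12 over 12 tests), with Rps27 itself 4.20 higher. The difference of Rps27l itself was 0.71 over HD-Control (limma adjusted p = 0.0293) with overlapping values. This difference missed the threshold without either of the first 2 HD-WNT5B libraries (limma adjusted p = 0.0687 and 0.0652) or any of the 3 HD-Control libraries (limma adjusted p = 0.0514 to 0.079). It was 0.15 with equal library totals (limma adjusted p = 0.563). With a weight per group or only the 2 groups fitted it also missed the threshold (limma adjusted p = 0.0729 and 0.0689). With the curve Rps27l stood at -0.85. Rpl22l1, whose message is held down by Rpl22 in mice, was at 6552, 7379 and 8024 in HD-WNT5B, 3006, 3064 and 3057 in HD-Control and 2164, 2077 and 2243 in WT-Control libraries. Its groups were separate, but with the curve it stood at 0.06 over HD-Control (limma adjusted p = 0.466). The Rpl22l1 level relative to Rpl22 differed by -0.79 between HD-WNT5B and HD-Control and by 0.20 between HD-Control and WT-Control (exact p = 0.1 and adjusted p = 0.12 for each), so its position moved in opposite directions in the 2 comparisons, which share the HD-Control libraries. Rpl7l1, a relative of Rpl7, was at 3091, 3379.6 and 3268 in HD-WNT5B, 1889, 1940.0 and 1891 in HD-Control and 1674, 1669 and 1717 in WT-Control libraries, and stood lower relative to Rpl7 in HD-WNT5B than in HD-Control (-0.64) and in HD-Control than in WT-Control (-0.40, each exact p = 0.1, adjusted p = 0.12). The order of this pair against HD-Control turned with the curve, where Rpl7l1 stood at 1.21 and Rpl7 at 0.99. Rpl3l, the form of Rpl3 used in heart and skeletal muscle, was low, at 509.8, 508 and 461 in HD-WNT5B, 36.7, 31.0 and 40.6 in HD-Control and 28.2, 14.5 and 37.9 in WT-Control libraries, which is under 0.2% of Rpl3 in each.

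Other genes of the pathway come from lists chosen with earlier results known. Over all genes tested, 24.5% were higher and 20.7% lower in HD-Control against WT-Control. In HD-WNT5B against HD-Control 35.8% of all genes were higher and 41.7% lower. Of 36 initiation factors 26 were higher, 2 lower and 8 not called in HD-Control against WT-Control (median 0.49), and 24 were higher, 8 lower and 4 not called in HD-WNT5B against HD-Control (median 0.81). Eif3f, a subunit of the initiation factor that binds the small subunit, was at 92649, 91465 and 89413 in HD-WNT5B, 7983, 8113 and 8181 in HD-Control and 4815, 4956 and 4556 in WT-Control libraries. Its 3 groups were separate, by 3.49 between HD-WNT5B and HD-Control and 0.76 between HD-Control and WT-Control (limma adjusted p = 2.6e-11 and 1.6e-06). Eif5b, which joins the subunits, was 4.27 higher in HD-WNT5B than in HD-Control, and Eif5, which activates GTP hydrolysis at the start codon, stood at -0.61 there and 0.76 higher in HD-Control than in WT-Control (limma adjusted p = 5.1e-11, 6.5e-08 and 5e-07). Of 10 genes tied to elongation, not all of them elongation factors themselves, 0 were higher, 2 lower and 8 not called in HD-Control against WT-Control (limma, 1 higher at an unadjusted p below 0.05). Eef1g and the neuronal Eef1a2 were the lower pair, at -0.47 and -0.63 (limma adjusted p = 5.6e-06 and 1.2e-05). In HD-WNT5B against HD-Control 7 were higher and 3 lower, Eef1a2 among the first at 2.10 and Eif5a2 among the second at -3.43 (limma adjusted p = 9.3e-10 and 1.5e-08). Eef1a1 and Eef2, known TOP messages, did not pass in HD-Control against WT-Control: Eef1a1 differed by 0.21 and Eef2 by -0.09 (limma adjusted p = 0.0611 and 0.148).

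Of 10 other messages tied to the ribosome 6 were higher, 0 lower (also 0 at an unadjusted p below 0.05 by limma) and 4 not called in HD-Control against WT-Control. In HD-WNT5B against HD-Control 6 were higher, 3 lower and 1 not called. The shares over all genes were 24.5% higher and 20.7% lower in the first comparison, and 35.8% higher and 41.7% lower in the second. Fau, which encodes Rps30 fused to a ubiquitin-like protein and is missed by the symbol rule, was at 84924, 98718 and 100770.0 in HD-WNT5B, 8260.2, 8253 and 7951 in HD-Control and 6388, 6007 and 5845 in WT-Control libraries. Its groups did not overlap, and it differed by 3.53 between HD-WNT5B and HD-Control and by 0.42 between HD-Control and WT-Control (limma adjusted p = 4.3e-10 and 0.00093). Rack1, a scaffold on the small subunit, differed by 2.46 and 0.09 in the same 2 comparisons (limma adjusted p = 1e-10 and 0.0705). Npm1, a nucleolar chaperone of ribosomal proteins, was at 3651, 3216 and 3437 in HD-WNT5B, 7382, 7585 and 7745 in HD-Control and 6372, 6281 and 6566 in WT-Control libraries; it was lower in HD-WNT5B (-1.14, limma adjusted p = 8e-08).

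Of 40 genes of ribosome assembly and ribosomal RNA transcription 18 were higher, 4 lower and 18 not called in HD-Control against WT-Control (median 0.21), and 27 higher, 6 lower and 7 not called in HD-WNT5B against HD-Control (median 0.82). Fbl, the methyltransferase of ribosomal RNA, was 1.99 higher in HD-WNT5B than in HD-Control and 0.76 higher in HD-Control than in WT-Control (limma adjusted p = 1.2e-08 and 3.6e-05). Gnl3, a nucleolar GTPase, was at 1524, 1405 and 1422 in HD-WNT5B, 2774, 2816 and 2747 in HD-Control and 1049, 980 and 1009 in WT-Control libraries, 1.45 higher in HD-Control than in WT-Control and -0.94 in HD-WNT5B against HD-Control (limma adjusted p = 8.7e-07 and 8.6e-07). Of 20 genes of mTORC1 and TOP control 5 were higher, 4 lower and 11 not called in HD-Control against WT-Control, close to the 24.5 and 20.7% of all genes. In HD-WNT5B against HD-Control 10 were higher, 8 lower and 2 not called, where 35.8 and 41.7% of all genes were. Mtor itself was at 3529, 4237 and 3543 in HD-WNT5B, 7804, 7873 and 8054 in HD-Control and 7713, 7732 and 7826 in WT-Control libraries. Mtor was lower in HD-WNT5B (-1.07, limma adjusted p = 7.9e-07), Larp1 was higher (0.72, limma adjusted p = 3.4e-06), and neither passed between HD-Control and WT-Control (0.03 and -0.06, limma adjusted p = 0.777 and 0.434). Ddit4, a stress-induced inhibitor of mTORC1, was 1.54 higher in HD-Control than in WT-Control and -0.80 in HD-WNT5B against HD-Control (limma adjusted p = 9e-06 and 9.3e-05).

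Of 6 genes of the Mdm2-p53 axis 3 were higher, 1 lower and 2 not called in HD-Control against WT-Control, where 24.5% of all genes were higher and 20.7% lower. In HD-WNT5B against HD-Control 1 was higher and 5 lower, where 35.8% of all genes were higher and 41.7% lower. Cdkn1a, the cell-cycle inhibitor induced by p53, was at 7579, 6897 and 8753 in HD-WNT5B, 8994, 9166 and 9262 in HD-Control and 747, 728 and 659.7 in WT-Control libraries. Both HD groups were far above WT-Control (HD-Control by 3.68, limma adjusted p = 7.2e-08). Mdm2 was at 2617, 2705 and 2848 in HD-WNT5B, 4747, 4841 and 4756 in HD-Control and 2796, 2774 and 2849 in WT-Control libraries, highest in HD-Control (0.77 over WT-Control, limma adjusted p = 4e-06). Trp53, which encodes p53, was at 259, 124 and 107 in HD-WNT5B, 1087, 1040.4 and 1015 in HD-Control and 1229, 1194 and 1079 in WT-Control libraries (-2.77 for HD-WNT5B against HD-Control and -0.15 for HD-Control against WT-Control, limma adjusted p = 2.4e-05 and 0.712).

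The 78 tested genes of the mitochondrial ribosome, a separate machine with its own proteins, served for comparison. In HD-Control against WT-Control 20 were higher, 22 lower and 36 not called with a median of -0.01, beside the 73 of 81 higher among the cytosolic genes. Over all genes 24.5% were higher and 20.7% lower there. In HD-WNT5B against HD-Control 67 were higher, 8 lower and 3 not called with a median of 1.89, beside 2.78 for the cytosolic genes. Over all genes 35.8% were higher and 41.7% lower in that comparison. The difference between the mitochondrial and the cytosolic set was not tested.

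Cell markers moved with the groups too. Over all genes 24.5% were higher and 20.7% lower in HD-Control against WT-Control, and 35.8% higher and 41.7% lower in HD-WNT5B against HD-Control. In HD-Control against WT-Control all 8 microglial markers were lower (median -2.33; summed level 10961 to 11025 in HD-Control against 27880.4 to 28246 in WT-Control), as were 7 of 8 oligodendrocyte, 5 of 8 astrocyte, 7 of 8 cortical excitatory neuron and all 3 blood markers. Another 2 astrocyte markers, Gfap and Gjb6, were higher (0.53 and 0.95, limma adjusted p = 1e-04 and 8e-07), 3 of 8 striatal projection neuron markers were higher and 5 lower, and none of the 6 vascular markers was higher and 3 were lower. In HD-WNT5B against HD-Control 5 of 8 microglial markers were higher and 0 lower (sum 39109.6 to 43982 in HD-WNT5B against 10961 to 11025 in HD-Control), 6 of 8 oligodendrocyte markers were higher and 2 lower, 3 and 4 of 8 astrocyte, 2 and 4 of 8 striatal projection neuron, 1 and 3 of 8 cortical and 3 and 3 of 6 vascular markers, and all 3 blood markers were higher, and 3 of 4 choroid plexus and ependymal markers were higher and 1 lower (blood sum 9163 to 11247 in HD-WNT5B against 789 to 859 in HD-Control, choroid plexus and ependymal sum 13199 to 15845 in HD-WNT5B against 1562 to 1619 in HD-Control). Astrocyte markers summed to 148776 to 164155 in HD-WNT5B, 167280.2 to 168554 in HD-Control and 278314 to 282864 in WT-Control libraries, and oligodendrocyte markers to 760750.0 to 807951 in HD-WNT5B, 338484 to 340895 in HD-Control and 464271 to 469192 in WT-Control libraries. The microglial sum does not stand for its whole list. Its median difference over HD-Control was 0.66 with 3 markers not called, and against WT-Control 3 were higher and 5 lower (median -0.92). The cortical marker Emx1 was at 0 in all HD-WNT5B libraries, and no other marker on these lists was at 0 throughout a group. The part of these markers' cell types in the ribosomal protein differences was not tested.

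Around the starts of the 61 members in the RefSeq table, windows of 250 bases before to 50 after the start held CCGGAAG, the core of sites of ETS factors, in 25 members (41.0%, against 9.93% of 27025 genes), GGGCGG, bound by SP1, in 38 (62.3% against 38.2%), and CCATNTT, the core of YY1 sites, in 20 (32.8% against 18.2%). TATAAA was in 7 (11.5% against 15.7%). The pyrimidine tract as defined above, searched within 30 bases of the start and on the coding strand only, was in 37 (60.7% against 29.7%). The other motifs were searched on both strands, and a base could count towards more than one. The 37 members with a tract had medians of 2.78 in HD-WNT5B against HD-Control and 0.45 in HD-Control against WT-Control, and the 24 without had 2.45 and 0.36. Members with and without CCGGAAG had 2.32 and 2.84 in HD-WNT5B against HD-Control. Both ranges overlapped almost wholly: members with a tract ran from -1.05 (Rps6) to 4.97 (Rpl38), and those without from -0.08 (Rpl10) to 5.21 (Rpl36a).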

How the data were processed

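Poly(A) RNA-seq of 9 mouse brain libraries was analysed. The authors deposited a normalized signal for each protein-coding gene of each library. No source states their scale; they are taken as estimated reads divided by a factor per library, not by length, since 96.4 to 98.7% of low values lay within 0.05 of whole multiples of a fitted step, although a search from the smallest values finds no common step. Per the submitters' processing notes the aligner was STAR and the genome mm10. For counting and normalizing, programs and versions are not stated in the sources. Ensembl identifiers were matched to GENCODE M21 for symbols, positions and representative transcript lengths. Log2 of the value plus 3 was fitted with limma 3.58.1 in R 4.3.3, with group means, all 9 libraries together and a variance trend, for genes that reached 10 in 3 or more libraries, and p-values were Benjamini-Hochberg adjusted over 15411 genes. The code was checked on simulated data. Members and lists were chosen with earlier results of these data known. Named were stalk genes, paralogs and parents, members with roles described, the 3 largest changes per subunit and comparison, members not called between HD-Control and WT-Control, the highest levels, and up to 4 genes per list by p; Rpl7a, Rpl4, Rps16, the members lower or furthest apart under the curve, Gfap, Gjb6, Eef2, Mtor, Larp1 and Trp53 were added after their values were seen. Some items that enter the counts are not reported here singly. Alternatives were other scalings, filters, constants, weights, a replicate block, a length and GC curve, and each library left out.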

Additional observations from a re-analysis of the deposited data

How the results depend on the processing

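In HD-Control against WT-Control the median was 0.35 with upper-quartile factors and 0.33 with the length and GC curve, with or without the replicate block. In HD-WNT5B against HD-Control the members called lower were 4 with equal totals, 2 with trimmed-mean factors and 2 with no filter. They were 9 with the curve (9 with the block added) and 1 to 2 with a library left out. Over all genes 8460 of 15508 were lower with equal totals, 6474 of 15411 with trimmed-mean factors and 7070 of 18375 with no filter. With the curve 4905 of 15411 genes were lower (4814 with the block), and with a library left out 5807 to 6756 genes. The members' median was 2.23 with equal totals, 2.74 with no filter and 1.29 with the curve in both forms. It was 2.72 to 2.86 with a library left out. In HD-WNT5B against WT-Control the members lower were 4 with equal totals, 2 with no filter, 5 with the curve and 6 with curve and block. Over all genes 8611 of 15508 were lower with equal totals and 7096 of 18375 with no filter. With the curve 5007 of 15411 genes were lower, and 4917 with curve and block. The members' median was 2.60 with equal totals, 3.12 with upper-quartile factors and 1.66 with the curve in both forms. It was 3.10 to 3.26 with a library left out. With no filter Rpl39l, at 0 in HD-WNT5B, is among the genes fitted, and equal totals shift the median of all genes by -0.54 and -0.56 in the 2 HD-WNT5B comparisons; otherwise the cause was not tested. Among the members named by rule, signs turned for Rpl15 (HD-WNT5B against HD-Control -0.29 with equal totals and -0.12 with the curve; against WT-Control -0.27 and -0.12), Rps27l with the curve (-0.85 against HD-Control, -0.56 against WT-Control) and Rpl10 against WT-Control (-0.54 with equal totals, -1.18 with the curve), the curve giving the same values with the block. Other signs that turned with the curve were those of Rpl19 (-0.57 against HD-Control and -0.23 against WT-Control), Rpl29 (-0.64 and -0.23), Rps16 (-0.42 and -0.004), Rps18 (-0.20 against HD-Control), Rpl7a (-0.91 against WT-Control) and Rpsa (-0.03, HD-Control against WT-Control). Rpl7l1 missed the threshold between HD-Control and WT-Control without any single one of the HD-Control libraries or without the first or second WT-Control library (adjusted p 0.0613 to 0.0858), and with upper-quartile factors (0.0984), as did Rpl36a and Rpl38 with the curve (0.04 and 0.17, limma adjusted p 0.605 and 0.115). Same-numbered libraries of different groups did not deviate together (correlations -0.08 to 0.02). That check cannot exclude a pairing with little effect on these values. The fit with the replicate block gave the same counts of members, 73 higher and 0 lower, 78 and 1, and 79 and 1. Over all 15411 genes it called 3496 higher and 2906 lower, 5435 and 6347, and 5456 and 6435 in the same comparisons. The count models planned as alternatives were not run. Rpl3l and Rps27l had the lowest mean values of the members and are limited most by scatter between replicates. Rpl3l scattered most in the HD-Control and WT-Control libraries (SD 0.18 and 0.62 on the log2 scale). Rps27l scattered most in the HD-WNT5B libraries (SD 0.55). The cause of the scatter was not tested.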
